A study of Homo sapiens with 15 samples.

Results

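The genes described here encode the thioredoxin system and the enzymes that use it against peroxides. They are TXN, TXN2, TXNRD1, TXNRD2, TXNIP, SRXN1, PRDX1, PRDX2, PRDX3 and PRDX6, 10 genes chosen by symbol out of the 58735 in the deposited table. Each symbol matched 1 row, 9 of the 10 passed the filter on low counts, and PRDX2 did not. RNA was sequenced from UKE1, an established human myeloid cell line that carries an activating JAK2 mutation, in 5 groups of 3 libraries. The groups were untreated cells, cells stimulated with TNF-α, an inflammatory cytokine used to imitate an inflamed environment in the body, and TNF-α stimulated cells that then received MCL, ruxolitinib, or MCL and ruxolitinib together. MCL is taken as micheliolide, the sesquiterpene lactone in the series title. Ruxolitinib blocks the kinases JAK1 and JAK2. All groups were collected at 3 h after treatment, and all drug groups carry the TNF-α stimulation as well. Neither doses, nor the duration of TNF-α, nor the culture behind each library are stated in the labels, so the p-values measure a spread between libraries that may be technical.

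Thioredoxin is a small protein that reduces disulfide bonds in other proteins, and thioredoxin reductase, a selenium-containing flavoenzyme, restores it with electrons from NADPH. Peroxiredoxins destroy hydrogen peroxide with a reactive cysteine and, for most of them, are recharged by thioredoxin. When the cysteine is oxidised too far, sulfiredoxin repairs it. TXNIP binds reduced thioredoxin and blocks it. TXN, TXNRD1, PRDX1, PRDX6 and SRXN1 act mainly in the cytosol, and TXN2, TXNRD2 and PRDX3 form the mitochondrial branch. TXNRD1, SRXN1, PRDX1 and TXN are textbook targets of NRF2, the transcription factor that KEAP1 holds back until electrophiles or oxidants modify it.

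Library totals ranged from 15476399 to 18035604 counts. Levels are given as CPM, the usual depth-scaled counts, after TMM normalization, and changes as log2 fold changes from edgeR's quasi-likelihood test with its standard error (SE). A gene is called higher or lower at a Benjamini-Hochberg adjusted p under 0.05 over the 16146 genes tested. The blood cell markers PTPRC, SPN and CD34 averaged 325, 269 and 1190 CPM, while MPO was at 0.826 CPM. Of 15 markers of other cell types, MS4A1, EPCAM and CDH1 were at 0 in every library, but CD79A of B cells, KRT8 of epithelium and CD3D of T cells averaged 23.6, 47.1 and 10.1 CPM, and the endothelial genes CDH5 and PECAM1 averaged 198 and 146 CPM. The summed level of the 12 blood cell markers was 3660 to 3720 CPM with TNF-α, 3060 to 3110 with MCL and 2450 to 2530 with both drugs. That of the 15 other markers was lower too, at 450 to 461, 385 to 393 and 390 to 401 CPM in the same order. The part of these differences in the changes below was not tested, and in bulk RNA fewer cells of a kind and less RNA per cell cannot be told apart. The 3 drug groups share the TNF-α libraries as their reference, so the comparisons against TNF-α are not independent.

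Per length, the peroxide enzyme PRDX1 and thioredoxin itself led the set and PRDX2 was almost silent. With TNF-α alone, the levels in RPKM, which is CPM per kilobase of exon, were 242 ± 11.6 for PRDX1, 200.0 ± 2.46 for TXN, 89.3 ± 1.34 for PRDX6, 52.1 ± 0.85 for PRDX3 and 46.9 ± 1.2 for TXN2 (SD, n = 3). TXNRD1 followed at 30.5 ± 0.624 RPKM, TXNIP at 17.9 ± 0.514, TXNRD2 at 3.71 ± 0.0618, SRXN1 at 0.284 ± 0.187 and PRDX2 at 0.0814 ± 0.0706. In that order the spreads of neighbouring genes did not overlap except for SRXN1 and PRDX2. The cytosolic members stood above their mitochondrial counterparts, with a TXN to TXN2 ratio of 4.27 ± 0.0987 and a TXNRD1 to TXNRD2 ratio of 8.22 ± 0.225 in RPKM.

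**Figure D1:**
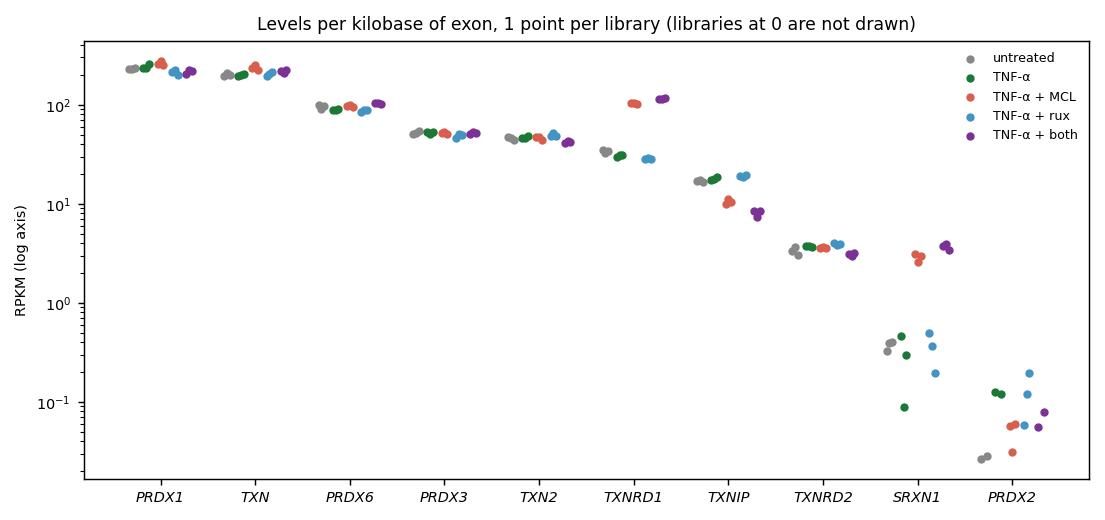
RPKM of the 10 genes on a log axis, with 1 point per library coloured by group, libraries at 0 not drawn, and genes ordered by their mean with TNF-α. Group means of PRDX1 and TXN lie between 200 and 263 RPKM, and TXNRD1 moves from about 30.5 to 104 RPKM with MCL. PRDX2 has the lowest mean of the genes in every group.

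Counting sets a limit on some of these levels. Of the exon bases of SRXN1 (ENSG00000271303, chromosome 20, 646615 to 653370, minus strand, GRCh38), 85% are shared with AL121758.1, a gene on the same strand that received 22 counts over all libraries, so 406 bases are its own. The labels do not say how reads in shared bases were assigned, and the RPKM of SRXN1 may be too low. Dividing all its counts by its own bases gives an upper limit, since reads there were not counted apart. This limit was 1.89 ± 1.25 CPM per kilobase with TNF-α and 19.2 ± 1.76 with MCL (SD, n = 3). PRDX1 shares 24.9% of its exon bases with MMACHC and PRDX2 14.1% with AC018761.2, both on the opposite strand. Pseudogenes named after TXN, PRDX1 and PRDX3 took between 0.201% and 0.53% of the counts of gene and pseudogenes together, but those named after PRDX2 took 67 counts against 33 for PRDX2 itself, so its counts are uncertain.

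MCL raised the reductase TXNRD1 and the repair enzyme SRXN1 several-fold, raised thioredoxin slightly and lowered the inhibitor TXNIP, while the mitochondrial branch did not pass the test. Of the 9 members tested, 5 rose and 1 fell relative to TNF-α alone, where 26.0% of all tested genes were called, 10.9% higher and 15.1% lower. The median log2 change was 0.12 for the members and -0.02 for all tested genes. Scaled by library totals, 53.7% of all calls were higher rather than 41.8%, and the members' counts were the same.

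**Figure D2:**
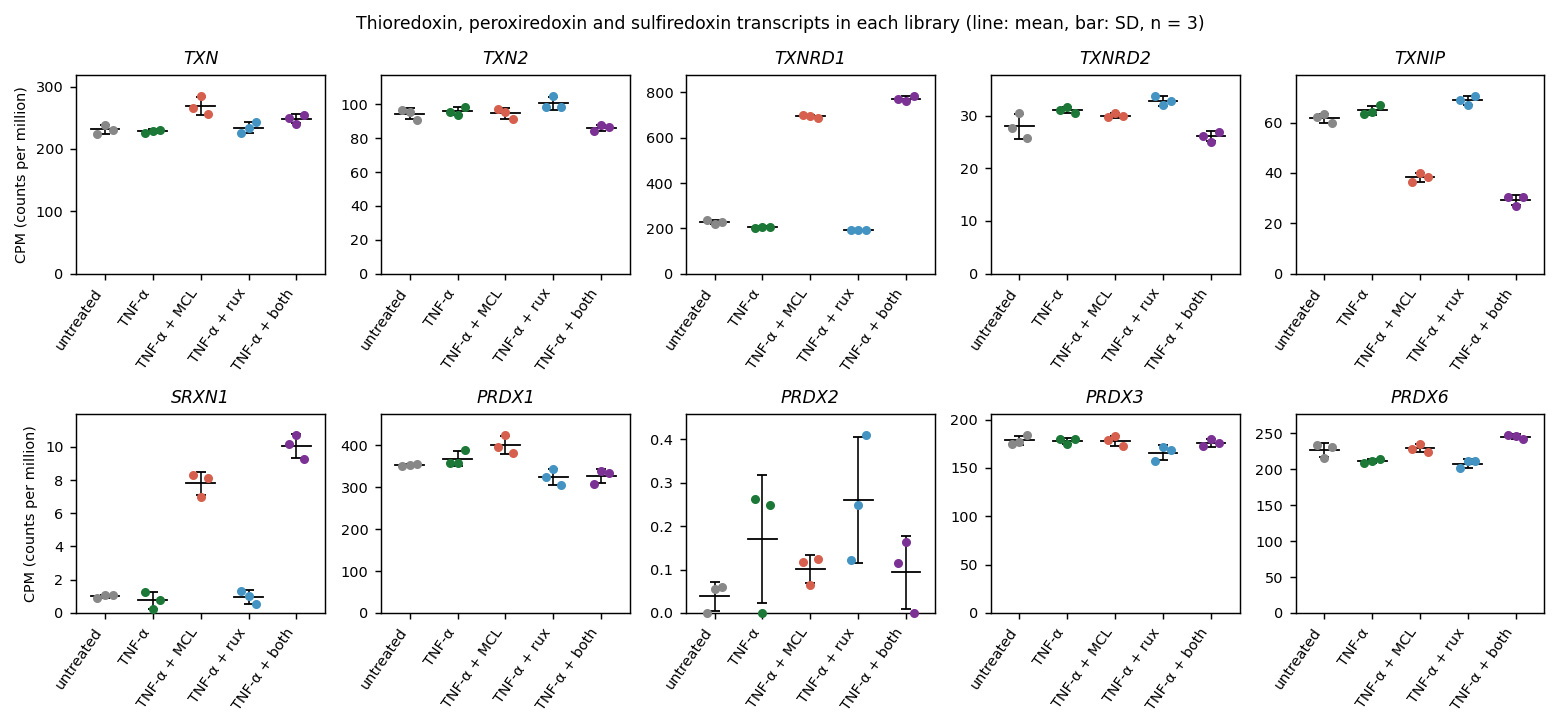
CPM of each of the 10 genes (y axis, from 0, separate for each gene) in every library of the 5 groups, where dots are libraries, lines means and bars SD over 3 libraries. TXNRD1 and SRXN1 are high and TXNIP is low in the 6 libraries given MCL, and TXN2 and TXNRD2 have their lowest means with both drugs.

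TXNRD1 encodes the cytosolic thioredoxin reductase (ENSG00000198431, chromosome 12, 104215779 to 104350305, plus strand). It stood at 199.8, 207 and 207 CPM with TNF-α, at 699.8, 698 and 689 CPM with MCL, at 191, 194 and 192 CPM with ruxolitinib and at 772, 762 and 785 CPM with both drugs. Untreated libraries had 236, 218 and 228 CPM. The 6 libraries with MCL were all above the 9 without it, and those with both drugs were above those with MCL alone. The change with MCL was 1.77 ± 0.03 (SE, adjusted p = 2.89e-47), a 3.4-fold rise.

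RefSeq windows of 250 bases before to 50 bases after a start site (GRCh38.p14) were found for 7 of the 10 genes, 11 windows in all, and those of TXNRD1 are shown because the gene changed most among the abundant members. The letters TGACNNNGC, the core of the antioxidant response element that NRF2 binds, were searched on both strands. They occur in 13.3% of the 34943 windows of all genes, and the longer form, the same letters followed by A, in 3.19%. Among the members the core was found in 2 of the 11 windows, both of TXNRD1, a share near the 13.3% of all windows. Whether NRF2 binds there was not tested. The window at the upstream start held 2 matches, of which the match at position -99 from the start site lies in chr12:104215655-104215713, plus strand. The window of the start inside the gene held 1 match, also in the longer form, at position -103 in chr12:104286904-104286963, plus strand. Capitals mark the matched letters, in the second stretch on the opposite strand.
TXNRD1, upstream start: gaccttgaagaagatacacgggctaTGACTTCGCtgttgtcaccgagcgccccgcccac
TXNRD1, start within the gene: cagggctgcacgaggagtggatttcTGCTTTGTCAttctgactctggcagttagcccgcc
The windows of TXN and SRXN1 held no such letters, which says nothing of the rest of these genes. TXN2, PRDX1 and PRDX6 were not matched.

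SRXN1, sulfiredoxin, had the largest fold change of the members. Its libraries held 19, 4 and 13 counts with TNF-α and 141, 107 and 131 with MCL, or 1.25, 0.24 and 0.807 CPM against 8.32, 6.99 and 8.1 CPM. Untreated cells were at 0.873, 1.06 and 1.07 CPM, ruxolitinib at 1.34, 0.996 and 0.526 CPM and both drugs at 10.2, 10.7 and 9.24 CPM. The libraries with and without MCL did not overlap, and TNF-α replicate 2 was the lowest of all. The change with MCL was 3.36 ± 0.25 (SE, adjusted p = 7.15e-17). SRXN1 remained well below TXNRD1: its 2.89 ± 0.264 RPKM with MCL compares with 104 ± 0.89 RPKM for TXNRD1 (SD, n = 3). Because of the shared exon bases its RPKM may be too low. The upper limit with MCL, 19.2 ± 1.76 CPM per kilobase, lies below TXNRD1 but above the 10.6 ± 0.511 RPKM of TXNIP.

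TXN, thioredoxin (ENSG00000136810, chromosome 9, 110243811 to 110256640, minus strand), rose with MCL from 225, 229 and 231 CPM to 266, 285 and 256 CPM. The groups did not overlap, and the change was 0.24 ± 0.04 (SE, adjusted p = 7.21e-07), a 1.18-fold rise. Thioredoxin and its reductase thus moved by different amounts, and the TXN to TXNRD1 ratio of RPKM went from 6.56 ± 0.0577 to 2.27 ± 0.112 (SD, n = 3), a description without a test.

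TXNIP, the α-arrestin that binds thioredoxin (ENSG00000265972, chromosome 1, 145992435 to 145996600, minus strand), went the other way. It had 63.4, 64.1 and 66.9 CPM with TNF-α, 36.5, 40.2 and 38.2 CPM with MCL and 30.4, 26.9 and 30.3 CPM with both drugs. Untreated cells had 62, 63.3 and 59.8 CPM and ruxolitinib 69, 67.1 and 70.6 CPM, so the 6 libraries with MCL were all below the 9 others. The change with MCL was -0.76 ± 0.06 (SE, adjusted p = 2.57e-17). The ratio of TXN to TXNIP in RPKM was 11.2 ± 0.221 with TNF-α, 22.3 ± 0.958 with MCL and 27.1 ± 1.23 with both drugs (SD, n = 3).

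TXNIP is a classical target of the glucose-sensing factors MLXIP and MLX, which bind the carbohydrate response element. This element, a pair of CACGNG boxes 5 bases apart searched on both strands, was found in 1 of the 2 windows of TXNIP and in 0.0572% of the windows of all genes. It is shown because the related arrestins ARRDC4 and ARRDC3 moved otherwise, and lies at position -88 from the start site in chr1:145996626-145996692, minus strand, with the match in capitals.
TXNIP: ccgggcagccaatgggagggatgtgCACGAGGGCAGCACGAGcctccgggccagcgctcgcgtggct
Of 6 tested genes among the other α-arrestins and these factors, 2 rose and 2 fell with MCL, where 10.9% of all tested genes were higher and 15.1% lower, with a median log2 change of -0.12. ARRDC4, an arrestin known to share this regulation, rose from a mean of 45.9 to 83.1 CPM (0.86 ± 0.05, adjusted p = 1.67e-21) and ARRDC3 from 25.5 to 47.4 CPM (0.89 ± 0.06, adjusted p = 3.67e-18). The arrestins ARRDC2 and ARRDC1, named after their values were seen, did not pass, at -0.15 and -0.09 (adjusted p = 0.0792 and 0.399). MLXIP and MLX fell by 0.24 and 0.22 on the log2 scale (adjusted p = 1.19e-05 and 0.00256). TXNIP and ARRDC4 therefore changed in opposite directions in the same libraries.

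Among the peroxiredoxins only small changes were seen. PRDX6, which uses glutathione in place of thioredoxin, rose from 208, 211 and 214 CPM to 228, 235 and 224 CPM with MCL, without overlap (0.12 ± 0.04 SE, adjusted p = 0.0126). PRDX1, the abundant cytosolic form, went from 358, 358 and 388 CPM to 395, 424 and 382 CPM, and its groups overlapped (0.12 ± 0.04 SE, adjusted p = 0.0294). Both calls rested on single libraries. For PRDX1 it was lost on leaving out TNF-α replicate 1, TNF-α replicate 2 or MCL replicate 2, which gave adjusted p-values of 0.118, 0.118 and 0.172. For PRDX6 it was lost on leaving out TNF-α replicate 1 or MCL replicate 2, which gave 0.11 and 0.10 on the log2 scale with edgeR's adjusted p at 0.0517 and 0.0573.

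The mitochondrial members did not pass with MCL. PRDX3, the mitochondrial peroxiredoxin, had 179.7, 175 and 180.0 CPM with TNF-α and 179, 183 and 173 CPM with MCL, a log2 change of 0.00 with a 95% interval from -0.09 to 0.08. TXN2, mitochondrial thioredoxin, was at 95.7, 94 and 98.7 against 97.5, 95.7 and 91.1 CPM (95% interval from -0.12 to 0.08). TXNRD2, its reductase, was at 31.1, 31.6 and 30.6 against 29.7, 30.5 and 29.8 CPM (-0.05, 95% interval from -0.21 to 0.10). Changes of the size seen for TXNRD1 lie far outside these intervals. PRDX2, a cytosolic peroxiredoxin abundant in red cells, had 2 counts over the untreated libraries, 8 with TNF-α, 5 after MCL, 13 after ruxolitinib and 5 after the combination, between 0.0393 and 0.26 CPM of the raw totals. The exact 95% counting intervals, which cover counting error only, ran from 0.00476 to 0.142 in untreated cells and from 0.138 to 0.444 CPM with ruxolitinib, and no change was tested.

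With TNF-α itself, TXNRD1 and PRDX6 were lower than in untreated cells. Of the 9 tested members 2 were lower and 0 higher than in untreated cells, where 26.6% of all tested genes were called, 14.1% higher and 12.5% lower, so the members' share was near that of all genes. The count of 0 is that of edgeR, as of DESeq2, and 1 member, TXNRD2, was higher at an unadjusted p under 0.05. With library totals 42.4% of all calls were higher rather than 53%. TXNRD1 fell by 0.15 (SE 0.03, adjusted p = 0.000323), and its libraries did not overlap. PRDX6 went from 233, 215 and 231 CPM to 208, 211 and 214 CPM (-0.10 ± 0.04 SE, adjusted p = 0.0325). The call of PRDX6 was lost on leaving out untreated replicates 1 or 3 or TNF-α replicates 1 or 2, with edgeR's adjusted p at 0.106, 0.11, 0.102 and 0.0628 in that order. TXNRD2 was at 0.15 (adjusted p = 0.105) and passed without untreated replicate 2 (0.22, adjusted p = 0.0331). SRXN1 was at -0.41 with a 95% interval from -1.20 to 0.38, which leaves room for a change of more than 2-fold.

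With ruxolitinib PRDX1 was lower and no member was called higher. PRDX1 had 324, 343 and 305 CPM against 358, 358 and 388 CPM with TNF-α, without overlap (-0.18 ± 0.04 SE, adjusted p = 0.00193). Counts were 2 lower and 0 higher of 9 tested. Of all tested genes 15.7% were called, 5.15% higher and 10.6% lower, so the members' share was near that of all genes. With library totals 45.4% of all calls were higher rather than 32.8%. The count of 0 higher was also that of DESeq2 and of edgeR at an unadjusted p under 0.05. The other call was PRDX3, at 157, 172 and 168 CPM (-0.11 ± 0.04 SE, adjusted p = 0.0494). It was lost when any 1 of the 15 libraries was left out (adjusted p from 0.0566 to 0.391) and under each other setting except the replicate block. TXNRD1 was at -0.09 (adjusted p = 0.0641) and TXNIP at 0.09 (95% interval from -0.03 to 0.21). At SRXN1, where ruxolitinib gave 0.33, the interval from -0.47 to 1.13 is wide because of its low counts.

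**Figure D3:**
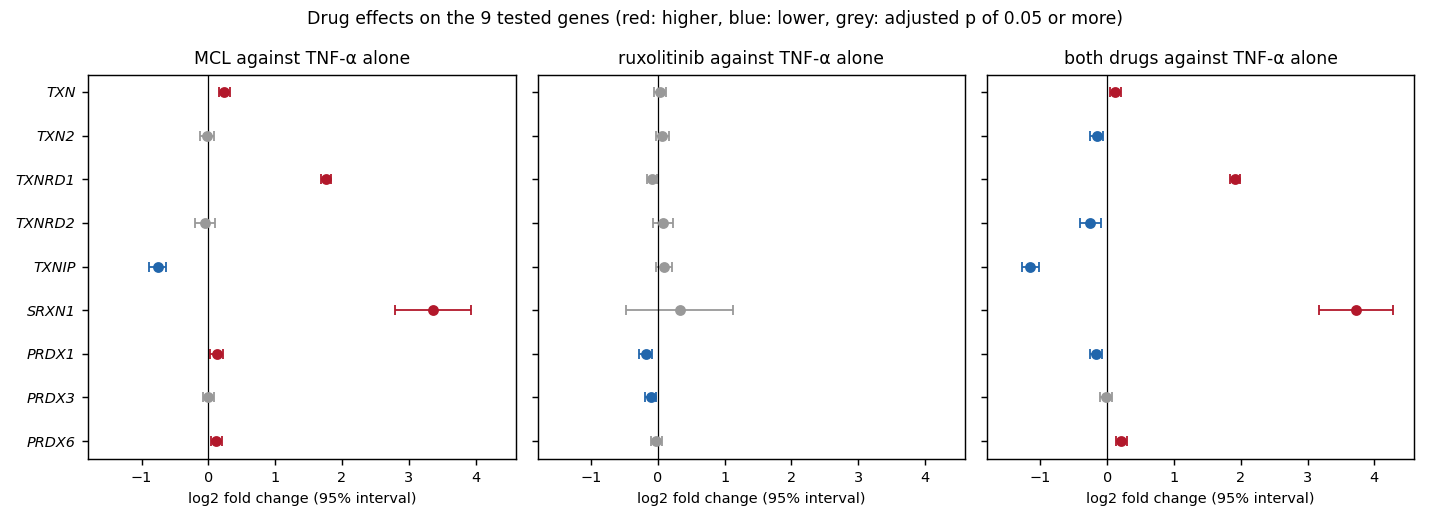
Log2 fold change of the 9 tested genes (x axis) against TNF-α alone for MCL, ruxolitinib and both drugs, with 95% intervals computed from the SE. SRXN1 and TXNRD1 lie at 3.36 and 1.77 with MCL and at 3.73 and 1.92 with both drugs, while the ruxolitinib values lie within 0.33 of 0.

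With both drugs, TXNRD1, SRXN1, PRDX6 and TXN were higher, TXNIP, TXNRD2, PRDX1 and TXN2 were lower, and PRDX3 did not pass. Of the 9 tested members 4 rose and 4 fell relative to TNF-α alone, where 54.8% of all tested genes were called, 25.5% higher and 29.3% lower. With library totals 56.6% of all calls were higher rather than 46.5%. TXNRD1 rose by 1.92 ± 0.03 (SE, adjusted p = 3.08e-50), SRXN1 by 3.73 ± 0.25 (adjusted p = 4.7e-20) and TXNIP fell by 1.15 (SE 0.06, adjusted p = 6.53e-26). PRDX6 reached 247, 247 and 241 CPM, above every other library in the series (0.21 ± 0.04, adjusted p = 6.81e-07), and TXN reached 249.7, 241 and 255 CPM (0.12 ± 0.04, adjusted p = 0.00473).

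TXN2 and TXNRD2 had their lowest group means with both drugs. TXN2 had 84.2, 87.6 and 86.4 CPM (-0.16 ± 0.04 SE against TNF-α, adjusted p = 0.00178) and did not pass with library totals (-0.08, adjusted p = 0.103). TXNRD2 had 26.1, 25.1 and 26.9 CPM (-0.26 ± 0.07 SE, adjusted p = 0.00159), and overlapped the untreated libraries at 27.6, 30.4 and 25.7 CPM. PRDX1 was at 309, 339.5 and 334 CPM (-0.17 ± 0.04 SE, adjusted p = 0.000993). PRDX3 at 172, 180.0 and 175 CPM did not pass (95% interval from -0.10 to 0.07). Transcripts of the mitochondrial chromosome moved in the same libraries, from 4.94% to 5.21% of counts with TNF-α to between 4.21% and 4.46% with both drugs. With MCL alone, where TXN2 and TXNRD2 did not pass, they already stood between 4.35% and 4.78%, and their part in these values was not tested.

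Adding ruxolitinib to MCL moved TXNIP and TXNRD1 further in the direction that MCL had set. Against MCL alone, 2 members were higher and 5 lower, where 41.6% of all tested genes were called, 19.6% higher and 22.0% lower. TXNIP fell by 0.39 (SE 0.06, adjusted p = 4.15e-07) and TXNRD1 rose by 0.15 (SE 0.03, adjusted p = 6e-05), both without overlap. PRDX1 fell by 0.29 (SE 0.04, adjusted p = 6.57e-07). SRXN1 was at 0.36 (adjusted p = 0.0835) and passed in a fit of only these groups (0.37, adjusted p = 0.017). The calls of TXN, TXN2, TXNRD2 and PRDX6 were each lost under some settings. TXN at -0.12 was lost without MCL replicate 2 (adjusted p = 0.133) and without both-drugs replicate 2 (adjusted p = 0.0737), TXN2 at -0.14 without MCL replicate 1 (adjusted p = 0.0633) and TXNRD2 at -0.20 without both-drugs replicate 2 (adjusted p = 0.0757). With library totals these 3 were also lost (adjusted p = 0.104, 0.0718 and 0.0612). PRDX6 at 0.10 was lost on leaving out MCL replicates 1 or 3 or both-drugs replicates 1 or 2, with edgeR's adjusted p at 0.0632, 0.107, 0.0647 and 0.0555 in that order.

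Adding MCL to ruxolitinib moved the strongest members in the same direction as MCL on its own. TXNRD1 was at 2.01 ± 0.03, SRXN1 at 3.40 ± 0.23 and TXNIP at -1.24 ± 0.06 (SE, adjusted p = 3.19e-51, 3.73e-19 and 1.46e-27). The sizes for TXNRD1 and TXNIP differed from those without ruxolitinib, as tested below. In this comparison 5 members were higher and 3 lower, where 51.7% of all tested genes were called, 24.8% higher and 26.8% lower. PRDX6 rose by 0.24 and TXN2 and TXNRD2 fell by 0.22 and 0.33 (adjusted p = 7.16e-08, 1.64e-05 and 4.92e-05). TXN at 0.09 (adjusted p = 0.0458) was lost in 8 of the 15 fits without a library, namely untreated replicate 3, any TNF-α replicate, MCL replicate 1, ruxolitinib replicate 1 and both-drugs replicates 1 and 3 (adjusted p up to 0.258). PRDX3 at 0.09 (adjusted p = 0.0492) was lost in 11, namely untreated replicates 2 and 3, any TNF-α replicate, MCL replicates 1 and 3, ruxolitinib replicates 1 and 3 and both-drugs replicates 2 and 3 (adjusted p up to 0.362).

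In a direct contrast, MCL and ruxolitinib gave different levels for 7 of the 9 tested members, 6 higher with MCL and 1 lower, where 27.5% of all tested genes were called, 14.3% higher and 13.1% lower. TXNRD1 was higher with MCL by 1.86 ± 0.03, SRXN1 by 3.03 ± 0.24, PRDX1 by 0.30 ± 0.04, TXN by 0.20 ± 0.04 and PRDX6 by 0.14 ± 0.04 (SE, adjusted p from 1.93e-48 to 0.00204), and TXNIP was lower at -0.85 ± 0.06 (adjusted p = 1.44e-19). PRDX3, higher by 0.11 (adjusted p = 0.0315), was lost on leaving out MCL replicates 1 or 2 or ruxolitinib replicate 1, with edgeR's adjusted p at 0.089, 0.141 and 0.273 in that order. TXN2 and TXNRD2 did not pass, at -0.09 and -0.13 with 95% intervals from -0.18 to 0.01 and from -0.28 to 0.03.

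The effect of MCL depended on ruxolitinib for 5 members, which was tested as the difference between the effect of MCL in its presence and in its absence. Of the 9 tested, 1 difference was positive and 4 negative, where 25.0% of all tested genes were called, 12.2% positive and 12.8% negative. For TXNRD1 the difference was 0.24 ± 0.05 (SE, adjusted p = 4.16e-05) and for TXNIP -0.48 ± 0.08 (adjusted p = 5.22e-06), so in both cases the 2 drugs together moved the gene beyond the sum of the single effects. For TXN2 it was -0.20 ± 0.06 (adjusted p = 0.0107), for TXNRD2 -0.28 ± 0.10 (adjusted p = 0.0288) and for TXN -0.15 ± 0.05 (adjusted p = 0.0292). For SRXN1 it was 0.03 with a 95% interval from -0.94 to 1.01, too wide to tell a sum from a larger or smaller effect.

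**Figure D4:**
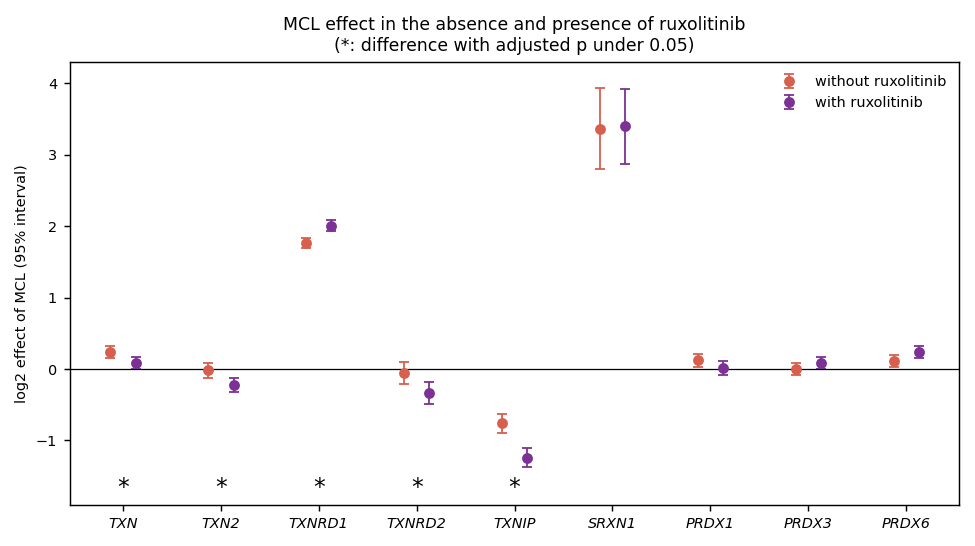
Log2 effect of MCL on the 9 tested genes (y axis) without ruxolitinib, against TNF-α alone, and with ruxolitinib, against ruxolitinib, with 95% intervals. Stars mark TXN, TXN2, TXNRD1, TXNRD2 and TXNIP, whose difference passed. For TXNIP the values are -0.76 and -1.24.

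The interaction calls of TXN and TXNRD2 depended on single libraries. That of TXN was lost on leaving out TNF-α replicate 1, MCL replicate 2, ruxolitinib replicate 3 or both-drugs replicate 2, with edgeR's adjusted p at 0.0614, 0.118, 0.0755 and 0.0826 in that order, and with library totals (adjusted p = 0.0563). That of TXNRD2 was lost on leaving out TNF-α replicate 3, ruxolitinib replicate 1 or both-drugs replicate 2, with edgeR's adjusted p at 0.0522, 0.0615 and 0.0686 in that order, and with DESeq2 (adjusted p = 0.0507). PRDX1 at -0.11 (adjusted p = 0.208) passed without ruxolitinib replicate 3 (-0.16, adjusted p = 0.0345), and PRDX6 at 0.12 (adjusted p = 0.0705) passed with library totals (adjusted p = 0.0282).

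In the lists below, counts with MCL stand beside 10.9% higher and 15.1% lower of all tested genes, and counts with both drugs beside 25.5% and 29.3%. Of 24 other genes of the thioredoxin fold and peroxiredoxin system, 6 rose with MCL in edgeR's test (median log2 change 0.05, against -0.02 for all tested genes), and 10 rose and 3 fell with both drugs (median 0.07, against -0.03). Both totals were near the 26.0% and 54.8% of all tested genes called. TMX4, a thioredoxin-like protein of the endoplasmic reticulum membrane, rose by 0.63 ± 0.05 with MCL (adjusted p = 6.62e-15) and by 1.24 ± 0.05 with both drugs. The remaining family members PRDX4, PRDX5 and TXNRD3, named after their values were seen, were at -0.02, 0.09 and 0.22 with MCL (adjusted p = 0.75, 0.305 and 0.198). Of 8 tested clients of thioredoxin, 1 rose and 1 fell with MCL: MSRB1, a methionine sulfoxide reductase, at 0.45 ± 0.07 and MAP3K5, the stress kinase ASK1 that thioredoxin holds inactive, at -0.52 ± 0.06 (adjusted p = 1.46e-06 and 1.24e-10), again near the share over all genes. With both drugs 2 rose and 5 fell (median -0.22). RRM2B, a ribonucleotide reductase subunit, was among those that rose, at 0.89 ± 0.06 (adjusted p = 2.33e-20).

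Of 10 glutaredoxins and other peroxide and superoxide enzymes, 3 rose and 1 fell with MCL (median 0.10), beside 26.0% called of all tested genes. GSR, glutathione reductase, rose from a mean of 138 to 289 CPM (1.06 ± 0.04, adjusted p = 5.41e-32) and SOD1 by 0.27 ± 0.04 (adjusted p = 4.73e-09), while SOD2, a mitochondrial enzyme, fell by 0.16 (adjusted p = 0.0296). Of 21 genes of selenoprotein synthesis and other selenoproteins, 4 rose and 2 fell with MCL (median 0.07), a share near the 26.0% over all tested genes. Beside the selenoprotein TXNRD1 at 1.77 stood MSRB1, which is also in this list, at 0.45 (adjusted p = 1.46e-06). SELENOK was at 0.39 and SELENON at -0.21 (adjusted p = 1.13e-05 and 2.73e-06).

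NRF2 targets outside the thioredoxin system had a median change of 0.83 with MCL and of 0.00 with ruxolitinib. With MCL 20 of 25 tested rose and 1 fell, where 10.9% of all tested genes were higher and 15.1% lower. With ruxolitinib 6 rose and 3 fell, where 5.15% were higher and 10.6% lower. OSGIN1, SLC7A11 and GCLM rose with MCL by 5.03 ± 0.08, 3.07 ± 0.06 and 3.10 ± 0.07 (adjusted p = 5.42e-52, 8.46e-47 and 5.55e-42). Of 8 regulators of NRF2, 5 rose and 1 fell with MCL, against the same shares of all genes. MAFG, which is also in the list of targets, rose by 1.64 ± 0.04 (adjusted p = 1.53e-41). KEAP1, the inhibitor of NRF2, rose by 0.56 ± 0.04 and BACH1, a repressor of the same sites, by 0.54 ± 0.04 (adjusted p = 3.12e-18 and 2.11e-17). These lists were chosen with results of these data known, so their counts, medians and adjusted p-values are a description only.

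Over the 15 libraries, which share 5 groups, the genes whose log2 CPM followed the 3 most variable members most closely were listed from 9921 protein-coding genes. The pattern of TXNRD1 was most like those of OSGIN1, GCLM, KEAP1, PGD and TMEM222 (Pearson r from 0.979 to 0.994). That of SRXN1 was most like those of KEAP1, HMOX1, TALDO1, GCNT2 and OSGIN1 (r from 0.951 to 0.97). That of TXNIP was most like those of HDAC7, PIK3CD, SLA, P2RX1 and BCOR (r from 0.976 to 0.979). Such correlations follow the group means and are a description.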

How the data were processed

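RNA of 15 libraries was analysed from 1 deposited table of raw read counts per gene, which the authors made without normalization. Per the submitters' processing notes, the tools were featureCounts 1.5.0-p3, HISAT2 2.0.5 and DESeq2 1.16.1; the notes list mm10 beside hg38, and say nothing of which tool used which. The labels state neither strand use nor the handling of shared reads. Start, end and merged exon length of all 58735 genes equalled those of GENCODE 29. The column of gene lengths deposited by the authors gave RPKM. Columns headed Control were taken as untreated.

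Genes were filtered with filterByExpr (minimum count 10), which left 16146. The fit used R 4.3.3 and edgeR 4.0.16 with TMM factors, 1 coefficient per group and the robust quasi-likelihood F-test (10 residual degrees of freedom), for 8 contrasts. The common biological coefficient of variation was 0.0404. The SE follows from the log2 change and the root of F, and 95% intervals use 10 degrees of freedom. They are not those of the F-test and can include 0 where its unadjusted p is under 0.05. For TXNRD2 with TNF-α, edgeR's p was 0.0341 and the interval ran from -0.0041 to 0.3095. Alternatives were DESeq2 size factors, library totals, no filter, DESeq2 1.42.0, only the groups compared, the replicate block and each library left out. No library was a copy of another (chi-square per degree of freedom from 2.02 to 4.07 within groups). On simulated counts for MCL against TNF-α over 15761 genes, 89.8% of 4-fold, 78% of 2-fold, 62% of 1.5-fold and 40.8% of 1.25-fold changes were recovered, with 6 false calls. Only 49 or 50 genes per fold were changed, drawn at random over all levels, while 4199 genes were called with MCL in the data. Recovery for the members was therefore not measured.

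All 10 members are named. Of each list, up to 4 genes that passed with the smallest p with MCL and up to 2 in other comparisons may be named, and likeness takes the 5 genes with the highest r among those with a mean of at least 5 CPM. The members and lists were chosen with earlier results of these data known.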

Additional observations from a re-analysis of the deposited data

Results flagged for a closer look

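The effect of MCL on 5 of the 9 tested members differed by ruxolitinib in a test of the difference itself, the edgeR interaction. Of all tested genes 25.0% were called in it, 12.2% positive and 12.8% negative. The log2 effect of MCL with ruxolitinib minus that without it was -0.15 for TXN, -0.2 for TXN2, 0.24 for TXNRD1, -0.28 for TXNRD2 and -0.48 for TXNIP. TXNIP fell by 0.76 with MCL alone and by 1.24 with MCL on ruxolitinib, and TXNRD1 rose by 1.77 and by 2.01. The calls of TXN and TXNRD2 were lost on leaving out single libraries, with adjusted p up to 0.118 and 0.0686, while those of TXN2, TXNRD1 and TXNIP were kept in all 15 such fits.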

How the results depend on the processing

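Over the members and alternatives 1512 values were computed, of which 1383 kept direction and side of the threshold, 78 lost a call, 4 gained one and 47 changed sign. The calls of TXNRD1 and TXNIP in the drug comparisons with MCL, and those of SRXN1 against TNF-α or ruxolitinib, were kept under every alternative run. All sign changes were in values that had not been called, and their cause was not tested.

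With library totals TXN2 was at -0.0076 for TNF-α against untreated and at 0.0133 for MCL against TNF-α, and PRDX3 at 0.0331 for MCL, at 0.0579 for both drugs against TNF-α and at 0.0247 for both drugs against MCL. Without the filter TXN2 was at 0.0036 and PRDX3 at 0.0234 for MCL, and PRDX3 at 0.0029 for both drugs against TNF-α. PRDX3 was at 0.0117 for MCL and 0.0048 for both drugs with DESeq2 size factors, at 0.0143 and 0.0051 with DESeq2, and in fits of only the groups compared at 0.0028 for TNF-α and 0.0153 for MCL.

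Leaving out 1 library at a time, log2 changes for TNF-α ran from -0.05 to 0.0017 for TXN, from -0.0068 to 0.037 for TXN2, from -0.94 to 0.0232 for SRXN1 (the highest without TNF-α replicate 2) and from -0.0294 to 0.0145 for PRDX3. For MCL they ran from -0.0374 to 0.0133 for TXN2 and from -0.0147 to 0.027 for PRDX3, and for ruxolitinib from -0.10 to 0.86 for SRXN1 and from -0.031 to 0.004 for PRDX6. For both drugs against TNF-α PRDX3 ran from -0.029 to 0.0108, against ruxolitinib PRDX1 ran from -0.029 to 0.069, and the interaction of SRXN1 ran from -0.50 to 0.47.

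The number of members lower with ruxolitinib was 1 rather than 2 with DESeq2 size factors, library totals, no filter, only the groups compared and DESeq2. For both drugs against MCL, 1 member was higher without the filter and 2 were lower with library totals. Against ruxolitinib, 3 were higher without the filter and in the fit of only the groups compared. With library totals 2 interactions were positive. Leaving out 1 library, the counts ran from 0 to 1 higher and 1 to 2 lower for TNF-α, from 3 to 5 higher for MCL, from 1 to 1 lower for ruxolitinib, from 1 to 2 higher and 3 to 5 lower for both drugs against MCL, from 3 to 5 higher for both drugs against ruxolitinib, and from 2 to 4 negative interactions. In the main fit, 10.6% of all tested genes were lower with ruxolitinib and 10.9% higher with MCL. For both drugs 19.6% were higher and 22.0% lower against MCL, and 24.8% higher against ruxolitinib. With TNF-α 14.1% were higher and 12.5% lower, and 12.2% of interactions were positive and 12.8% negative. Whether the members' counts moved with those of all genes was not tested.

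With the replicate block every count of members was the same, for example 5 higher and 1 lower for MCL, and 1763 and 2476 genes of the whole table were higher and lower rather than 1757 and 2442. Deviations of same-numbered libraries correlated between -0.048 and 0.048 and 7 of 15 libraries were closest to their own number, so the numbers were not taken as pairs. Depth limits SRXN1, with 4 to 22 counts in libraries without MCL, and PRDX2, with at most 7.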
